A study of Mus musculus with 3 samples.

Results

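The cytosolic ribosomal proteins are the protein part of the ribosome, and are described here by their mRNAs in CPE, the epithelium of the choroid plexus, the cell layer of the brain ventricles that makes cerebrospinal fluid. Members were the non-control probes whose gene name on the array was that of a ribosomal protein of the small (*Rps*) or large (*Rpl*) subunit, or of the stalk (*Rplp*), and the *Rps6k* kinases were left out. The rule used names and no measured value. It found 135 of the 41174 probes and 81 of the 27845 gene names. They fell into 30 small subunit genes, 45 large subunit genes with the stalk genes among them, 5 paralogs (*Rpl3l*, *Rpl7l1*, *Rpl22l1*, *Rpl36al*, *Rps27l*) and *Rps19bp1*, a nucleolar protein that binds a ribosomal protein and is not one itself.

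The samples were 3 healthy adult wild type C57BL/6 mice. Their CPE was laser dissected from frozen brain sections, and its RNA was amplified and labelled with the red dye Cy5. A common RNA, taken from RPE, the pigmented epithelium behind the retina, together with choroid of C57BL/6 mice, was labelled with the green dye Cy3 and hybridised on all 3 arrays. The arrays form 1 group (n = 3), there was no untreated or diseased group, and the dyes were never swapped, so a dye preference of a probe and a difference between CPE and the reference cannot be told apart.

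A ribosome reads an mRNA with its small subunit and joins amino acids with its large subunit, and each subunit holds ribosomal RNA and a set of small, mostly basic proteins. Every growing or secreting cell needs them, so their mRNAs are among the abundant ones of most tissues. Many of these mRNAs begin with a run of pyrimidines, the terminal oligopyrimidine tract, through which their translation is tied to the supply of nutrients and growth signals.

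The label of the tissue was checked against marker genes. Of 9 CPE markers tested, 8 were higher in CPE than in the reference after limma with Benjamini-Hochberg adjustment, and the median log2 ratio was 2.66. The summed intensity of the 9 markers was 258880 to 280290 in CPE and 22054 to 27561 in the reference. The reference held the markers of its own tissue and of neighbouring retina: 7 of 8 RPE and melanocyte markers and 6 of 6 photoreceptor markers were lower in CPE. Red blood cell markers were lower in CPE in 3 of 3 genes, with a summed intensity of 28779 to 49709 in CPE against 92782 to 104480 in the reference, and stroma markers in 4 of 4, with 17337 to 22558 against 72911 to 84260. Neuron markers were lower in 3 of 3 genes, with 1056.5 to 2776 against 11129 to 14050, and macrophage markers in 3 of 4, with 10014 to 10928 against 37892 to 45474. Of 4 endothelium markers 0 were called, with 6543 to 9394 against 4295 to 5461 and a median log2 ratio of 0.37. After median centring of the ratios 1 red blood cell, 2 stroma and 2 macrophage markers were lower. The part of these other cells in the ribosomal protein ratios was not tested, and in such bulk RNA fewer cells of a type and less RNA per cell cannot be told apart. Array 3 had the most CPE probes above background, 35234, against 24083 on array 1 and 18934 on array 2.

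Ribosomal protein probes were among the brightest of the array in both tissues. With probes ranked over the whole array by their mean log2 intensity over the 3 mice, 104 of the 135 probes (77.0%) fell in the high expression class of CPE, above the 90th percentile, which by construction holds 10% of all probes. A further 20 were moderate (50th to 90th percentile), 10 low (10th to 50th) and 1 very low. In the reference 106 were high, and 103 were high in both. The same 99 probes were high in each of the 3 mice taken alone, against 8.09% of all probes. Of the 412 probes in the top 1% of the array, 66 (16%) were ribosomal protein probes in CPE and 85 (20.6%) in the reference. These ranks describe probes, which differ in how well they hybridise, and do not order the genes by amount of mRNA.

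When each gene was represented by its brightest probe, 77 of the 81 genes were in the high class of CPE, with a median percentile of 99.4 in CPE and 99.6 in the reference. All 30 small subunit genes were high in both channels and in every mouse, and the lowest of them stood at the percentile of 97.0. Of the 45 large subunit genes 43 were high. The 4 genes with no high probe were *Rpl14* (percentile 81.1), *Rpl21* (81.2), *Rps19bp1* (85.2) and *Rpl3l* (40.2). *Rpl3l* is a paralog of *Rpl3* known for its expression in heart and skeletal muscle.

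The kind of sequence behind a probe went with its rank. Of the 113 probes designed on curated RefSeq mRNAs 98 were high in CPE, whereas 6 of the 22 probes designed on other cDNA accessions were, with a median percentile of 57.4. The 5 probes that were too dim for the test, of *Rps2*, *Rps18*, *Rps19*, *Rpl35a* and *Rpl22l1*, all belonged to the second kind, and each of these genes had another probe that was tested. Probes whose genomic placement spanned more than the 60 bases of the probe, as a placement across an intron does, were high in 39 of 42 cases. Above background on every array were 124 of the probes in CPE and 128 in the reference.

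**Figure D1:**
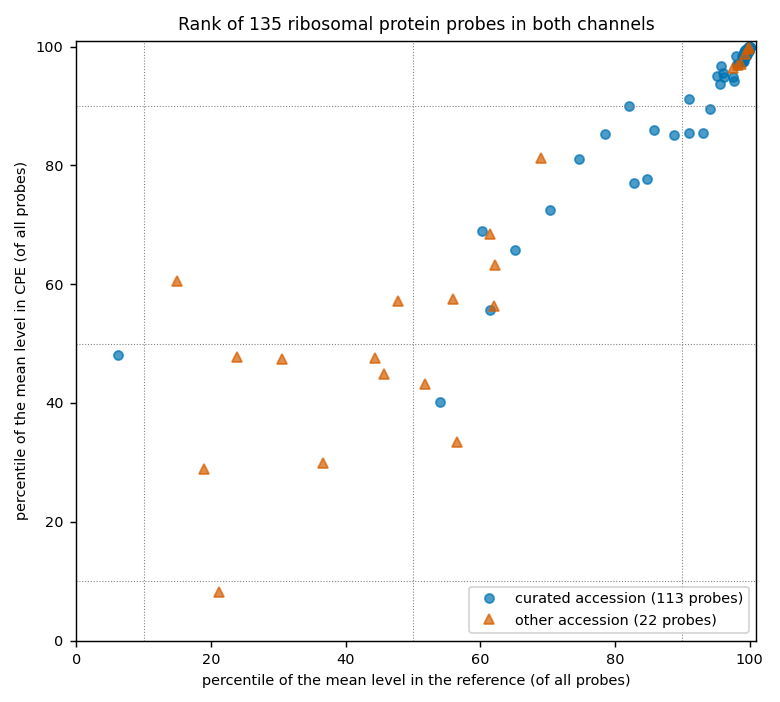
Percentile of the mean level of each of the 135 ribosomal protein probes among all 41174 probes, in the reference (x axis) and in CPE (y axis), with probes on curated accessions as circles and on other accessions as triangles. Dotted lines mark the class limits at the 10th, 50th and 90th percentile. A reader should see the 103 probes in the upper right corner and the spread of the triangles, of which 6 of 22 lie above the 90th percentile in CPE.

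The start regions of many of the genes hold a run of pyrimidines, and they are given so that the genes named in the results can be seen beside their sequence. RefSeq promoters (build GRCm38.p6) were at hand for 61 of the 81 genes. A run was defined as a C followed by at least 7 more bases that are each C or T, on the coding strand, within 50 bases on either side of the annotated start. It was present in 56 of 72 promoters of the family (77.8%), counting alternative starts, and in 28.8% of all 32851 promoters of the table. At least 1 promoter held it in 47 of the 55 small and large subunit genes found, and in 4 of the 6 paralogs and *Rps19bp1*. The match is of letters only, and it does not show that an mRNA begins with the run. In the following stretches of 30 bases, read 5′ to 3′ on the coding strand, capitals mark the run, the longest where a window held several and, of equal ones, the one nearest to the start. They were chosen for a stalk gene, for the gene with the lowest ratio, for small subunit genes with low ratios and for a pair of paralogs.
Rplp2: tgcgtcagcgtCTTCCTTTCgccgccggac
Rpl12: ggaggaggcaacggtgcaaCTTTCTTCggt
Rps6: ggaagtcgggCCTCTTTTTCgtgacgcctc
Rps12: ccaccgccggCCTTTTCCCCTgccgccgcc
Rps18: gtcacttccgCTCTCTCTTCCacaggaggc
Rps27: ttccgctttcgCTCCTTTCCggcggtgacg
Rps27l: actcctctccaCTCCTCCCCgccgcctcta
Their places on GRCm38.p6 are chr7:141447636-141447665 on the plus strand for *Rplp2*, chr2:32961732-32961761 on the plus strand for *Rpl12*, chr4:86857349-86857378 on the minus strand for *Rps6*, chr10:23787182-23787211 on the minus strand for *Rps12*, chr17:33955648-33955677 on the minus strand for *Rps18*, chr3:90213632-90213661 on the minus strand for *Rps27* and chr9:66946063-66946092 on the plus strand for *Rps27l*. The run of *Rps6*, the protein phosphorylated by the S6 kinases, began 1 base before the annotated start, and those of *Rps18* and *Rps27* began 2 bases before it. In *Rpl12* the run of 8 bases lay 39 bases after the start. The stretch of *Rps27l* holds another run of the same length, left in lower case. Among the subunit genes with no run in any window were *Rplp0*, *Rpl23*, *Rpl24*, *Rps3*, *Rps3a* and *Rps4x*. Genes without a run include some past the threshold after loess and some, such as *Rpl23* and *Rpl24*, that were not called. The relation of the run to the ratio was not tested.

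The ratio of CPE over reference was tested within each array. The loess step used for it fits a curve of ratio against intensity on each array and takes it off, so that bright probes centre on 0 as dim ones do. After loess the median log2 ratio of the 130 tested ribosomal protein probes was -0.64, against -0.040 for all 25847 probes tested, whereas median centring, which takes 1 value off each array, gave 0.20 against 0.092 and no normalization gave 0.34 against 0.25. The direction of the family against 0 therefore depended on the normalization. After loess the median was -0.57 in mouse 1, -0.68 in mouse 2 and -0.51 in mouse 3. After median centring it was 0.76, 0.59 and -0.60 in the same order, so that mouse 3 stood on the other side of 0 from both others.

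At an adjusted p under 0.05 (limma, Benjamini-Hochberg) and at least 2-fold, 22 of the 130 probes were lower in CPE and 1 was higher after loess. When both channels had to stand above background on every array, 23 of 122 were lower and 0 higher. Of all probes tested, 10.2% were lower and 7.09% higher by the same rule, and 17.3% passed in either direction. After median centring 0 ribosomal protein probes were lower and 6 were higher, with 7.13% and 14.5% of all probes. The ratio after loess was below 0 in every mouse with a value for 105 of the 130 probes (80.8%), beside 36.6% of all probes. At an adjusted p under 0.05 with any fold, 79 were lower and 4 higher, beside 22.3% and 16.9% of all probes. By genes, with the brightest probe, 17 of 81 were lower and 0 higher after loess, 64 did not pass, and the median was -0.68; after median centring 0 were lower and 4 were higher.

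Against other bright probes the family had the lower median under both normalizations. Of the probes in the high class of both channels, 103 were ribosomal protein probes and 2996 were not. After loess their medians were -0.70 and -0.028, and after median centring 0.22 and 0.70. In mouse 1 the medians were -0.62 against -0.0033 after loess and 0.82 against 1.22 after median centring. In mouse 2 they were -0.82 against -0.043 and 0.61 against 0.97, and in mouse 3 -0.57 against -0.00038 and -0.65 against -0.065. The ribosomal protein median was the lower one in every mouse under both. This is a description of medians with no test, and the sets were not matched in brightness within the high class. Leaving out probes with a saturated spot, the median of the 96 that remained was -0.70 after loess and 0.20 after median centring.

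**Figure D2:**
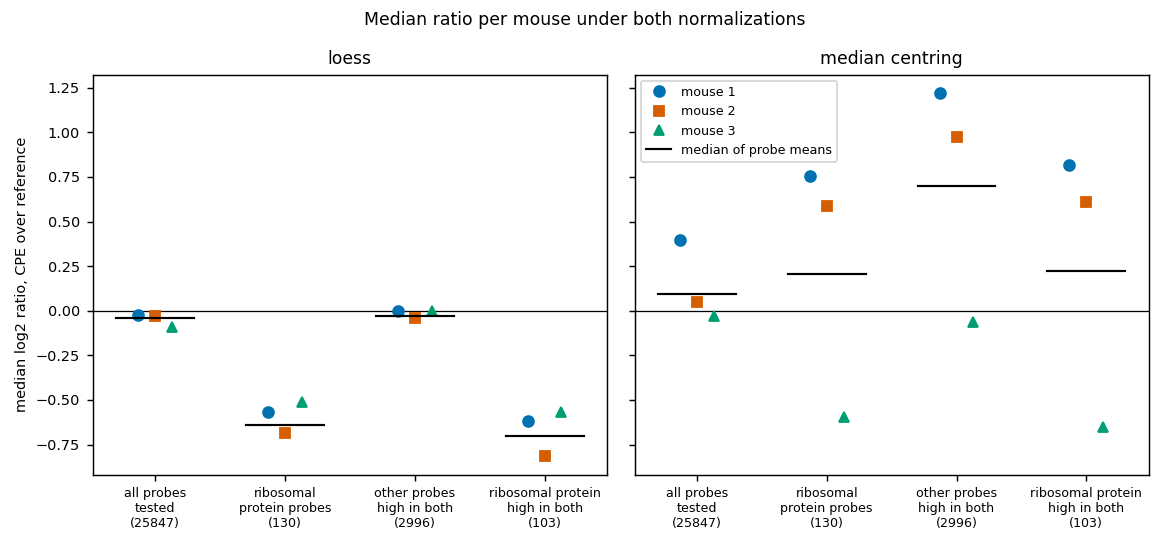
Median log2 ratio of CPE over reference per mouse (symbols) and of the probe means (lines), after loess (left) and after median centring (right), for all tested probes, the ribosomal protein probes, other probes high in both channels and ribosomal protein probes high in both channels. The ribosomal protein probes lie below 0 in every mouse after loess and above 0 in mice 1 and 2 after median centring, and lower than the other bright probes of the same mouse in both panels.

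The small subunit was the lower of the subunits in median ratio. With the brightest probe per gene the median of the 30 small subunit genes was -0.80 and that of the 45 large subunit genes -0.70 after loess, and 0.15 and 0.30 after median centring. Those are medians of gene means. Taken within each mouse, the medians differed, small minus large, by -0.22, -0.19 and -0.21 in mice 1, 2 and 3 after loess (mean -0.20 ± 0.015, SD, n = 3). After median centring the difference was -0.22, -0.11 and -0.20, so its sign was the same in each mouse under both. The SD is over mice read with the same probes against the same reference RNA, and not over genes. Over genes the interquartile range after loess was 0.53 for the small and 0.50 for the large subunit. Past the threshold after loess were 11 of 30 small and 6 of 45 large subunit genes, all lower, with the saturated *Rplp1* counted among the large ones. Of all probes tested 10.2% were lower by the same rule. After median centring 0 of each were lower, and 3 large subunit genes were higher, beside 7.13% and 14.5% of all probes. With 3 mice an exact test of such a difference cannot go below 0.25 (two-sided), and no p is given for it.

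**Figure D3:**
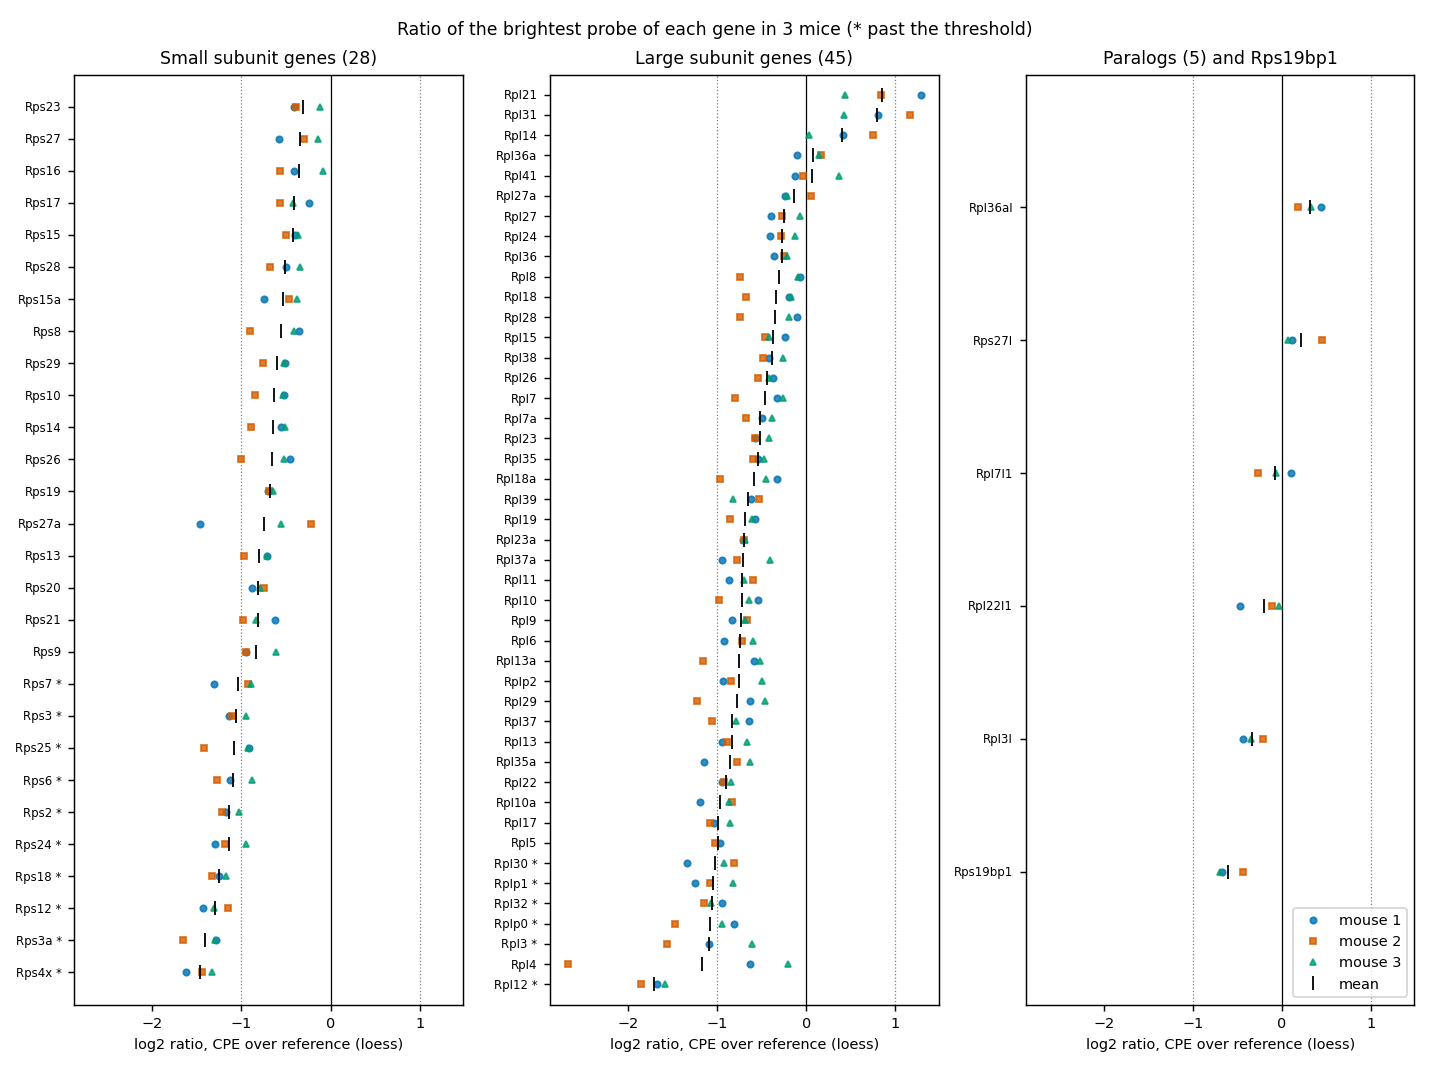
Log2 ratio of CPE over reference after loess for the brightest probe of 79 genes, with 1 symbol per mouse and a tick for the mean, sorted within each panel. Asterisks mark the 16 genes past the threshold of 2-fold (dotted lines) and adjusted p under 0.05. All 28 small subunit genes drawn lie left of 0 in every mouse, and after median centring the median of the small subunit genes was 0.15.

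Among small subunit genes, *Rps4x*, the X-linked form of the protein S4, had the lowest ratio after loess. Its bright probe (mm8 chrX:98387669-98387728) read -1.62, -1.44 and -1.33 in mice 1, 2 and 3, with a mean of -1.46 (SE 0.15, limma adjusted p = 0.000356). All 3 mice lay past 2-fold, and the mean after median centring was -0.57, which did not pass. *Rps3a*, listed as *Rps3a1* in RefSeq, read -1.29, -1.66 and -1.30, with a mean of -1.41. Mouse 2 was the lowest. *Rps12* read -1.43, -1.15 and -1.30 (mean -1.29) and *Rps18*, at the head of the subunit, read -1.25, -1.34 and -1.18 (mean -1.26). Also past the threshold, *Rps2*, *Rps3*, *Rps6*, *Rps7*, *Rps24* and *Rps25* had means from -1.14 to -1.04, and their means after median centring lay between -0.22 and -0.079, none of them called. Without mouse 2 *Rps25* came to -0.92 and fell short of 2-fold. The least negative small subunit gene was *Rps23*, a protein of the decoding centre, at -0.31 after loess and 0.69 after median centring, neither of them called.

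Among large subunit genes, *Rpl12*, which holds the base of the stalk, had the lowest ratio of the whole family. The log2 level of its probe (mm8 chr2:32785816-32786012, across an intron) was 14.39, 14.08 and 14.28 in CPE and 14.67, 14.88 and 14.99 in the reference. Reference levels were thus the higher ones on each array before loess too. The ratio after loess was -1.68, -1.86 and -1.59, with a mean of -1.71 (SE 0.15, limma adjusted p = 0.000164), and after median centring it was -0.76, not past the threshold (adjusted p = 0.132). It was the only family probe that passed limma's test against a 2-fold change. *Rpl3*, which lies near the peptidyl transferase centre, read -1.09, -1.56 and -0.60, with a mean of -1.09, and without mouse 2 it no longer reached 2-fold (-0.85). *Rpl32* and *Rpl30* had means of -1.05 and -1.03. Without mouse 1 *Rpl30* came to -0.87 and was no longer past the threshold. *Rpl5*, which binds the 5S RNA, was 1.99-fold lower in CPE and not called, as it fell short of 2-fold. Its value comes from mice 1 and 2 alone, because its spot on the array of mouse 3 was an outlier and was dropped.

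*Rpl13*, a large subunit gene, read -0.95, -0.89 and -0.66 at its brightest probe, with a mean of -0.84 (SE 0.15) that did not reach 2-fold. Its levels were 14.94, 14.90 and 14.91 in CPE and 14.47, 14.69 and 14.71 in the reference. Before loess CPE was the higher channel for this probe on each array, and after median centring the ratio was 0.13. *Rpl13a*, a protein of another gene despite its name, read -0.59, -1.16 and -0.52, with a mean of -0.76 after loess and 0.18 after median centring. *Rpl39*, a protein of the exit tunnel, had means of -0.66 and 0.26, *Rpl10* -0.73 and 0.15, and *Rpl36* -0.28 and 0.65. None of these passed under either normalization.

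The stalk is the flexible arm of the large subunit that calls elongation factors to the ribosome. *Rplp0*, its base, read -0.81, -1.48 and -0.95, with a mean of -1.08 (SE 0.18, limma adjusted p = 0.00305), and without mouse 2 it came to -0.88. *Rplp1* and *Rplp2*, its acidic tips, had saturated CPE spots for every mouse, as had *Rpl41*, the smallest ribosomal protein. Their CPE levels were at least 15.96 for *Rplp1*, 15.90 to 16.04 for *Rplp2* and 15.86 to 16.04 for *Rpl41*, at the upper end of the scanner. The ratio of *Rplp1* after loess was -1.25, -1.08 and -0.83 (mean -1.05), and that of *Rplp2* was -0.94, -0.85 and -0.50 (mean -0.76). CPE was the saturated channel and the dimmer one after loess. Saturation can make CPE read too low, so these ratios limit how much lower CPE could be and set no least difference. For *Rplp1* on array 3, where the reference was saturated too, they do not set that limit either. The call of *Rplp1* as lower is uncertain in this respect, and no fold is given. Without mouse 1 *Rplp1* came to -0.95. *Rpl41* read -0.12, -0.035 and 0.36, with a mean of 0.068. Its limma adjusted p was 0.778, and its sign turned without mouse 3 (-0.079). After median centring it was 1.07 (adjusted p = 0.0357). In all, 7 family probes were saturated in CPE on at least 1 array, of 47 on the whole array. The reference channel was saturated for 1, *Rplp1*, on array 3.

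At the other end, the genes with the highest ratios of the family had dimmer probes. *Rpl21* read 1.29, 0.84 and 0.44 (mean 0.85) and *Rpl31* 0.80, 1.16 and 0.43 (mean 0.80), at CPE percentiles of 81.2 and 90.1, and neither reached 2-fold. *Rpl14* read 0.42, 0.75 and 0.025. Mouse 3 had the lowest value in each of these genes. After median centring the 6 probes called higher were both probes of *Rpl31* and 1 each of *Rpl11*, *Rpl21*, *Rpl36al* and *Rpl41*.

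The paralogs had a median of -0.078 after loess and 0.69 after median centring, above the medians of both subunits under each. After loess 0 of 5 passed, beside 10.2% lower and 7.09% higher of all probes. After median centring 1 of 5 was called, *Rpl36al* (1.16, higher), beside 7.13% lower and 14.5% higher of all probes. *Rpl22l1* read -0.47, -0.11 and -0.034, and its partner *Rpl22* read -0.94, -0.92 and -0.85. The difference within the array was 0.47, 0.81 and 0.81 (mean 0.70 ± 0.20, SD, n = 3) after loess, and the mean after median centring was 0.75, so *Rpl22l1* was the higher one in every mouse under both. *Rps27l*, a p53-induced partner of *Rps27*, was above it by 0.69, 0.75 and 0.20 after loess (mean 0.55 ± 0.30, SD, n = 3) and by 0.35 on average after median centring, and *Rps27* was saturated in CPE on 2 arrays. For *Rpl7l1* over *Rpl7* the mean difference was 0.39 after loess and 0.095 after median centring, and for *Rpl36al* over *Rpl36a* 0.24 and 0.17, in both pairs with a mouse on the other side after median centring. *Rpl3l*, above background in CPE on 1 of 3 arrays, over *Rpl3* came to 0.75 after loess and -0.28 after median centring. For each of these 5 pairs the exact permutation p after loess was 0.25, the smallest 3 mice allow (two-sided), and 0.25 after adjustment over the pairs. After median centring it was 0.25 to 0.75. *Rps19bp1* read -0.67, -0.44 and -0.70, with a mean of -0.60 that was not called.

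Probes of 1 gene often disagreed. Of the 40 genes with several probes, 94 probes in all, 23 had probes in different expression classes, and 10 had a high probe together with a low or very low one. Among the 39 genes with at least 2 tested probes the median gap in log2 ratio was 0.30, and 6 genes had a gap of 1 or more. *Rpl11*, which with *Rpl5* and the 5S RNA can bind Mdm2, had the widest, 1.93. Its bright probe (mm8 chr4:135322046-135322368) read -0.87, -0.60 and -0.70, and the dim one (mm8 chr4:135322118-135322177), on another cDNA, read 1.43, 1.45 and 0.76. The dim one was the only family probe called higher after loess (mean 1.21, SE 0.19, limma adjusted p = 0.00216). The bright probe, of 60 bases, is placed over a span of 323, and the dim one lies inside that span. The probes therefore need not read the same sequence. The dim probe was above background in CPE on all arrays and in the reference on 2 of 3, so it was tested through CPE, where it was the brighter. Its level was 7.62 to 8.61 in CPE, beside 12.78 to 14.64 for the bright probe.

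*Rpl37* had a gap of 1.82, between a high probe at -0.83 and a low probe at 0.99 that was above background in the reference on 1 of 3 arrays. *Rps24* had a gap of 1.48, *Rps25* of 1.47, *Rps4x* of 1.31 and *Rps6* of 1.17. The dim probe of *Rps4x* was above background in CPE on 1 of 3 arrays and that of *Rps6* on 2. In all 6 genes the bright probe had the lower ratio and the other probe was in the moderate or low class. With both probes in the high class, *Rps3* read -1.06 and -1.42, and *Rps2* read -1.14 and -1.09. *Rpl10* had probes placed on chromosomes X and 13 and *Rpl6* on 5 and X. Ribosomal protein genes have many processed copies in the genome, so the probes of these genes can share RNA with copies, and their values are uncertain in that respect.

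**Figure D4:**
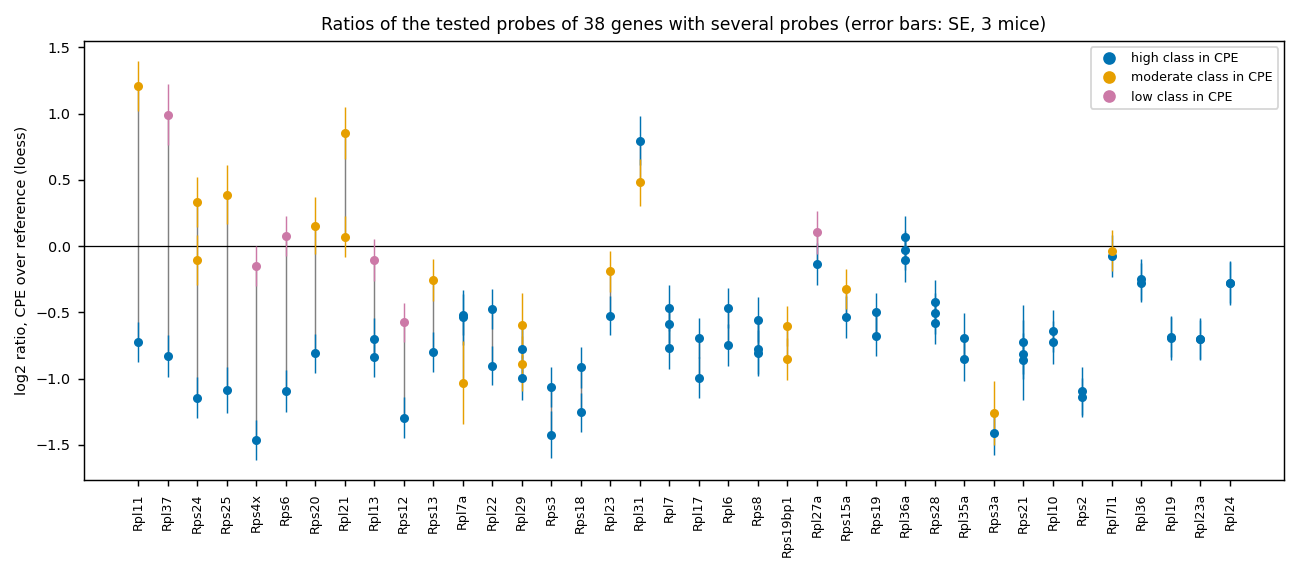
Log2 ratio of CPE over reference after loess for each tested probe of 38 genes with at least 2, with the SE from limma over 3 mice, ordered by the gap between the probes of a gene. Colours give the expression class of the probe in CPE. From *Rpl11* (gap 1.93) to *Rps6* (1.17) the upper probe is of the moderate or low class and the lower one of the high class.

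The spread between mice depended on how the channels were scaled. Over the 122 probes that stood above background for each mouse, in CPE and in the reference alike, the median SD of the log2 level after Aquantile was 0.27 in CPE and 0.20 in the reference, where 1 RNA was hybridised each time, and 0.34 and 0.31 over all 17951 such probes. The median SD of the ratio was 0.20, beside 0.28 over all. With each channel centred on its median the SD in CPE was 1.61 for the family, and after Aquantile it was 0.17 to 0.22 leaving out a mouse. The gene order of the ratios was alike between mice, with Spearman coefficients of 0.69 for mice 1 and 2 (81 genes), 0.87 for mice 1 and 3 and 0.77 for mice 2 and 3 (80 genes each). Over 81 genes it was 0.92 between the means after loess and after median centring. These coefficients are across genes of arrays that share the reference, and genes are no replicates.

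Of the 5 probes with the largest SD in CPE, 4 also had an SD above 1 in the reference. The dimmer probe of *Rpl24* had levels of 12.63, 12.79 and 10.54 in CPE and 11.94, 12.31 and 9.65 in the reference. *Rpl30* had 13.22, 13.73 and 11.45 in CPE and 13.26, 13.61 and 11.43 in the reference. A dimmer probe of *Rpl35a* had 11.81, 12.46 and 10.15 in CPE and 11.77, 12.11 and 9.75 in the reference. In these 3 probes both channels were low on the array of mouse 3, whose reference RNA was the same as on the others. Of 12 family probes whose CPE level in mouse 3 lay more than 1 below the mean of the other mice, 10 were also more than 1 below it in the reference. On arrays 1 and 2 there were 3 such probes each, and 0 of them were as low in the reference. Across 134 probes the deviation of an array in CPE and in the reference had a Pearson coefficient of 0.66 on array 3, 0.59 on array 2 and 0.28 on array 1.

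*Rpl4*, a large subunit protein that lines the exit tunnel, was the other of the 5, with an SD of 1.23 in CPE and 0.40 in the reference. Its single probe had levels of 12.42, 10.20 and 12.22 in CPE and 11.85, 12.31 and 11.51 in the reference. The ratio was -0.63 in mouse 1, -2.68 in mouse 2 and -0.20 in mouse 3, so the mean of -1.17 (limma adjusted p = 0.0604) rested on mouse 2 and came to -0.42 without it. Probes of *Rpl29* (SD 0.86 in CPE and 0.17 in the reference) and *Rps21* (0.75 and 0.065) also spread more in CPE. A dimmer probe of *Rpl7a* split the mice in another way, at -2.09, -0.33 and -0.68, and was called lower at -1.03 while the brightest probe of the gene read -0.52. Without mouse 2 the median of the family after loess was -0.55.

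**Figure D5:**
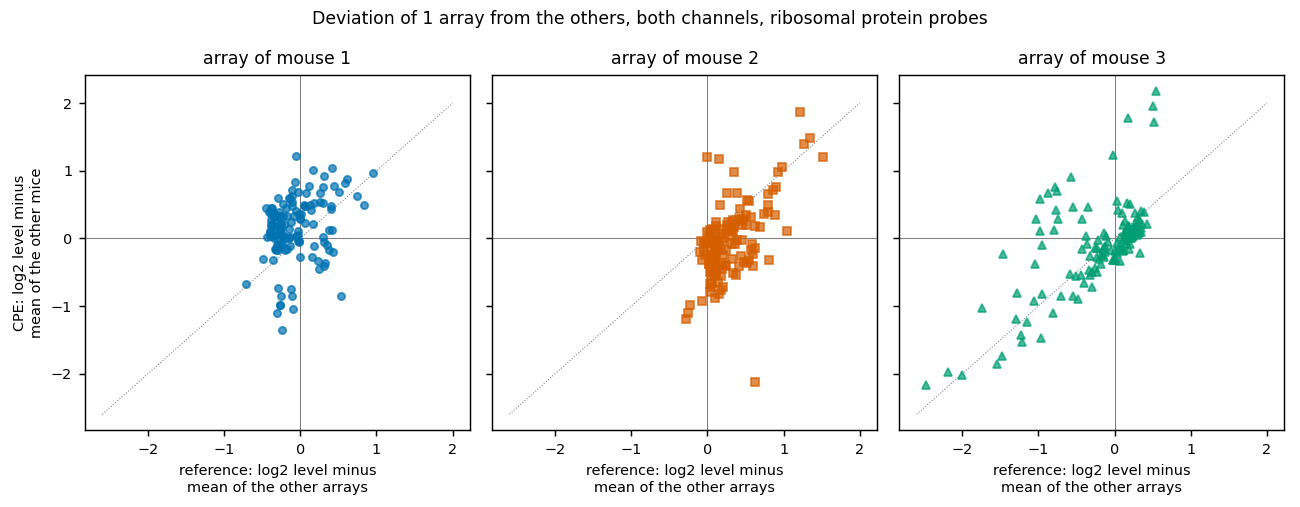
Deviation of each ribosomal protein probe on 1 array from its mean on the others, in the reference (x axis) and in CPE (y axis), both as log2 level, with 1 panel per mouse. On the dotted line both channels deviate alike. On the array of mouse 3, 12 probes lie more than 1 below 0 in CPE, 10 of them in the reference too, and on that of mouse 2 *Rpl4* lies 2.12 below 0 in CPE and 0.63 above it in the reference.

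Ratios were also read by the place of the probe along the gene. In 27 genes with probes at least 100 bases apart, the deviation of a mouse's ratio from the others was compared between the outermost 5′ and 3′ probes. As each mouse is set against the mean of the others, the differences of a gene cancel out over the mice by construction. A low value in a mouse forces a high one elsewhere, so the mice are not separate observations here. In mouse 2 the 5′ probe was the lower one in 23 of the 27 genes, with a median difference of -0.27, while in mice 1 and 3 it was the lower one in 10 and 12, with medians of 0.13 and 0.048. In the reference the 5′ probe was the lower one in 18 genes on array 2 (median -0.031) and in 18 on array 1 (median -0.092). The 5′ probe of *Rps21* read -0.62, -0.98 and -0.83, and the 3′ probe -1.73, 0.031 and -0.88. Its difference was -1.59 in mouse 2 and 1.59 in mouse 1, and that of *Rpl7a* was -1.87 and 1.80. *Rps25* had -1.28 in mouse 2 and 1.13 in mouse 3, and *Rps3a* had the opposite sign in mouse 2 (1.32). The 3′ probes of *Rps25* and *Rpl7a* and the 5′ probe of *Rps3a* were dimmer probes of the moderate class. Probe places are genomic, and the probes of a gene need not read the same sequence. The part of RNA length or amplification in these values was not tested.

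Other genes of translation were read in the same test. Among ribosomal genes that the name rule misses, *Rpsa* (-1.33) and *Rack1* (-1.56), both on the small subunit, were lower after loess, and *Fau* (-0.36), made as a fusion with a ubiquitin-like protein, was not called. After median centring *Rpsa* read -0.45 and *Rack1* -0.61, and neither was called. Of 78 mitochondrial ribosomal proteins, which are encoded in the nucleus and serve the separate ribosome of mitochondria, 3 were higher, 1 was lower (*Mrpl9*, -1.21) and 74 were not called, with a median of 0.10, beside 7.09% higher and 10.2% lower of all probes. The highest of them was *Mrpl38* at 1.26. After median centring 26 were higher, beside 14.5% of all probes, *Mrpl9* was not called (-0.96) and the median was 0.74. The list is a description beside the family, and the difference between the lists was not tested.

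Elongation factors and related genes such as *Eef2k* and *Tpt1*, with 10 genes tested, had a median of 0.0051 after loess and 0.62 after median centring. The only one called after loess was *Eef1e1* (-1.04), a member of the aminoacyl-tRNA synthetase complex, which read -0.50 and was not called after median centring. *Eef1b2*, the exchange factor of *Eef1a1*, had a ratio of -0.96 and *Eef2*, the translocation factor, of 0.70, with -0.50 in mouse 2 against 1.05 and 1.55 in the others. Neither was called after loess, and after median centring *Eef2* was called higher (1.45). Of 37 initiation factors, 2 were higher, *Eif4g1* (1.35) and *Eif2s3x* (1.15), and 2 were lower, *Pabpc1* (-1.10), the poly(A) binding protein, and *Eif5* (-1.01), with a median of -0.12. After median centring 7 were higher and 0 lower, the median was 0.55, and *Pabpc1* (-0.21) and *Eif5* (-0.27) were not called. Of 34 genes of ribosome assembly, of RNA polymerase I and related to them, 3 were higher: *Larp1* (2.06), which binds the pyrimidine tract, *Polr1a* (1.37), the catalytic subunit of the polymerase, and *Bysl* (1.34). The median of the list was 0.062, and after median centring it was 0.45 with 7 higher. *Larp1* read 2.59, 1.54 and 2.06 in the 3 mice, and 2.64 on average after median centring. Of 9 S6 kinases, 1 was lower, *Rps6kb1* (-1.13), with -0.68 and no call after median centring. Beside the counts of these lists, 10.2% of all probes tested were lower and 7.09% higher after loess. After median centring 7.13% were lower and 14.5% higher. The lists were not tested against these shares, and the genes named are single genes of their lists.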

How the data were processed

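Per the submitters' processing notes the authors scanned the arrays with Agilent Feature Extraction 9.5.3.1, and the deposited spot tables give, per spot, the mean and local background intensity of both channels, a processed intensity, and other columns, the flags for saturation, outliers and signal well above background. Per the file headers they also hold a log10 ratio of the processed signals, red over green. The deposited table of the series holds log2 levels, normalized by the authors between arrays (Aquantile) with limma in R 2.14.0 per the submitters' processing notes. Its rank correlation over probes with the red channel after loess and Aquantile was 0.998 to 0.999. The levels used here for ranks and classes had no loess step, and their correlation with the deposited levels is not given. Probe coordinates are on mm8, and 134 family probes have them. Human samples were not analysed here. 0 columns of sample values were left unused for want of a sample.

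Ratios were computed from the mean intensities after normexp background correction (offset 50) and loess within arrays, with outlier spots dropped and spots of a probe averaged, in R 4.3.3 with limma 3.58.1. A probe was tested when either channel was flagged well above background for all 3 mice. Its mean ratio was tested against 0 with lmFit and eBayes and Benjamini-Hochberg adjustment over all probes tested, and it was called at an adjusted p under 0.05 and at least 2-fold. Levels were log2 mean intensities without background correction after Aquantile. The procedure was tested on simulated data. The labels number the samples as 3 mice, and the number of arrays limits the precision. Named genes were the stalk genes, paralog pairs, the lowest and highest 6 called genes, genes saturated on all arrays, the 6 genes with the widest gap between probes, the 5 probes with the largest SD, *Rpl13*, and up to 3 genes of each other list; genes named beyond these were chosen after their values were seen. The family, the lists and the tests were chosen with earlier results of these data known. *Rpl10l*, *Rpl39l* and *Rps4l* were in the rule but were not named by any probe used here. Values of some genes are not reported here by name.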

Additional observations from a re-analysis of the deposited data

How the results depend on the processing

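The count of family probes past the threshold, both directions pooled, was 23 after loess (22 lower and 1 higher). It was 6 after median centring, all higher, and 1 of them was among the 23. It was 7 without normalization within arrays (an alternative chosen after seeing the data) and 1 with limma's test against a 2-fold change. With any fold at an adjusted p under 0.05 it was 83 (79 lower and 4 higher). With loess fitted without the family it was 33 (32 lower and 1 higher). Array weights gave 31, the scanner's ratio 17, and leaving out each mouse in turn 18 to 29. Of all probes tested 10.2% were lower and 7.09% higher after loess, and 22.3% and 16.9% with any fold. After median centring 7.13% were lower and 14.5% higher. Under the other settings the share of all probes is not given here. The median log2 ratio of the probes was 0.20 after median centring, 0.34 without normalization, -0.78 with loess fitted without the family, -0.53 with the scanner's ratio, and -0.67 to -0.55 leaving out a mouse. By gene the median was 0.26 after median centring and -0.85 with loess fitted without the family, and -0.72 to -0.58 leaving out a mouse. Calls over the 172 genes of the other translation lists numbered 15 after loess (7 lower and 8 higher). They numbered 41 after median centring, all higher, and 14 to 18 leaving out a mouse.

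Over all 81 genes, with the brightest probe, 74 were below 0 after loess and 23 after median centring. Among the family genes named by rule alone, these turned sign after median centring, none of them called: *Rpl7* 0.46, *Rpl7a* 0.45, *Rpl7l1* 0.55, *Rpl10* 0.15, *Rpl11* 0.22, *Rpl13* 0.13, *Rpl13a* 0.18, *Rpl22l1* 0.69, *Rpl24* 0.62, *Rpl35a* 0.042, *Rpl36* 0.65, *Rpl37* 0.11, *Rpl39* 0.26, *Rplp2* 0.26 and *Rps27* 0.67. Other genes of the family turned sign too and are not listed. *Rpl41* turned to -0.16 with loess fitted without the family, to -0.013 with array weights and ranged from -0.079 to 0.16 leaving out a mouse, and *Rpl7l1* from -0.17 to 0.017. The cause was not tested. The family counted 97 to 105 high probes in CPE and 102 to 106 in the reference over the settings for levels, 100 of them with the deposited table. The median SD between mice in CPE was 1.61 after median centring of each channel and 0.17 to 0.22 leaving out a mouse. No paired analysis was possible because the arrays form 1 group, beyond the pairing of both channels of an array that the ratio itself holds. Dim probes and saturated spots limit what the ratios show.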
